A study of Malus domestica with 18 samples.

Results

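The genes described here are those of apple (Malus domestica) annotated as proteins of the cytosolic ribosome, the particle that makes protein outside the plastids and mitochondria. A gene was taken when its Swiss-Prot name in the annotation of the count table contained 60S ribosomal protein, 40S ribosomal protein or 60S acidic ribosomal protein, and names with mitochondrial or chloroplastic were left out. The rule gave 361 of 42841 genes, of which 190 were named for the large subunit, 151 for the small subunit and 20 for the acidic stalk. By protein name they formed 79 families of 1 to 12 genes. As a check on the names, 321 of the 361 genes also carried a Pfam domain label of a ribosomal protein, and 40 did not. Of the 361, 256 had enough counts to be tested (140 large subunit, 104 small subunit and 12 stalk genes). The other 105 comprised 73 with no count in any library and 32 with too few, and together they reached 0.980 to 6.98 FPKM (fragments per kilobase and unit of library size) per library.

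A cytosolic ribosome joins a small 40S subunit, which decodes the messenger RNA, to a large 60S subunit, which forms the peptide bond. A flexible stalk of acidic proteins on the large subunit, P0 with P1, P2 and the plant protein P3, recruits the elongation factors. Plants keep several paralogous genes for most ribosomal proteins, and the demand for these proteins follows cell growth and division, so that young shoot tissue usually carries much of their messenger RNA.

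RNA was taken from axillary shoots of the cultivar Húsvéti rozmaring kept in vitro. Explants of 20 mm came from a subculture without cytokinin and were placed on medium with no cytokinin (control), with 4.5 µM thidiazuron (TDZ, a synthetic phenylurea cytokinin) or with 4.5 µM 6-benzylaminopurine riboside (BAR, the riboside of an adenine-type cytokinin). All 3 media also held 0.49 µM of the auxin IBA and 0.58 µM gibberellin GA3. Shoots were sampled after 48 hours and after 4 weeks, with 3 libraries in each of the 6 groups. The labels call these biological replicates without saying whether they came from separate vessels, so the p-values below measure the spread between these libraries, which may be partly technical.

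The 18 libraries held 12546489 to 21279097 counts in genes. The library labelled TDZ 4 week replicate 3 went against its label: cytokinin dehydrogenase 3 (DVH24_029452), an enzyme that degrades cytokinin, stood at 0.0644 CPM (counts scaled to a common library size) there, against 212 and 182 CPM in replicates 1 and 2, 189 to 431 CPM in TDZ at 48 hours and 0 CPM in the 4 week controls. The 4 week BAR libraries stood at 0.0583, 0 and 0.161 CPM for this gene. A value near 0 CPM is therefore not by itself the mark of a library without cytokinin. The TDZ library was kept as labelled, and the counts of called genes for TDZ at 4 weeks, with the single genes in which it stood apart, are also given without it. Those single genes were picked by the values of this library. A smaller p-value in such a gene without the library is therefore no separate support. The library names of replicate 3 in the 48 hour control, in BAR at both times and in TDZ at 4 weeks end in a b whose meaning the labels do not give. Without the b, each is the library name of replicate 1 of the same group. Whether the 2 libraries of such a pair come from separate samples is not stated. CPM values below use library sizes scaled by the trimmed mean of M-values (TMM). Some paralogs are nearly identical, and reads that they share cannot be assigned with certainty to either. Pieces of shoot were sequenced in bulk, so that fewer cells with active ribosome synthesis and less messenger RNA per cell cannot be told apart.

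Families differed widely in level. Measured per length, the summed FPKM of a family, averaged over the 18 libraries, ran from 56 for L3 to 1486.5 for S15a, with a median of 611 and a ratio of 26.5 between the extremes. S9 (1468.5 FPKM), S23 (1458 FPKM), S27 (1407 FPKM) and P1 (1350 FPKM) followed S15a. In 72 families at least 2 genes were tested, and the leading gene held a median of 53.8% of its family's FPKM. The 8 highest single genes came from both subunits and the stalk. L15 DVH24_035900 led with a mean of 1108 FPKM, followed by S23 DVH24_038787, whose protein lies by the decoding site, at 1049.7 FPKM and P1 DVH24_011983 at 1015 FPKM. The others were a pair of S9-2 genes (DVH24_037127 and DVH24_031895, 784 and 684 FPKM), S2-4 DVH24_013203 and L30 DVH24_042626 (649 FPKM each), and L10 DVH24_038322 (632 FPKM).

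Summed over all members, the ribosomal protein transcripts made up 2.17% to 4.56% of the counts of a library. At 48 hours the summed level was 30724, 35634 and 40119 CPM in the controls, 48173, 39303 and 39032 CPM with TDZ, and 45294, 32796 and 25819 CPM with BAR. At 4 weeks it was 30731, 25601 and 25249 CPM in the controls, 19741, 22115 and 25503 CPM with TDZ, and 24802, 20290 and 23375 CPM with BAR. Every 4 week library with TDZ or BAR lay below every 48 hour library of the same medium, and the highest 4 week control met the lowest 48 hour control. Group means and SD (n = 3) at 48 hours were 42170 ± 5201 CPM for TDZ, 35492 ± 4699 for the control and 34636 ± 9867 for BAR, and at 4 weeks 27194 ± 3068 for the control, 22822 ± 2306 for BAR and 22453 ± 2896 for TDZ (20928 CPM without replicate 3). The 4 week order depended on the scaling. With library totals alone the 4 week means were 23391 CPM in controls, 24093 CPM with BAR and 25011 CPM with TDZ, and the TMM factors of the controls (0.860 to 0.861) lay below those of the other 4 week libraries (0.929 to 1.28).

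**Figure D1:**
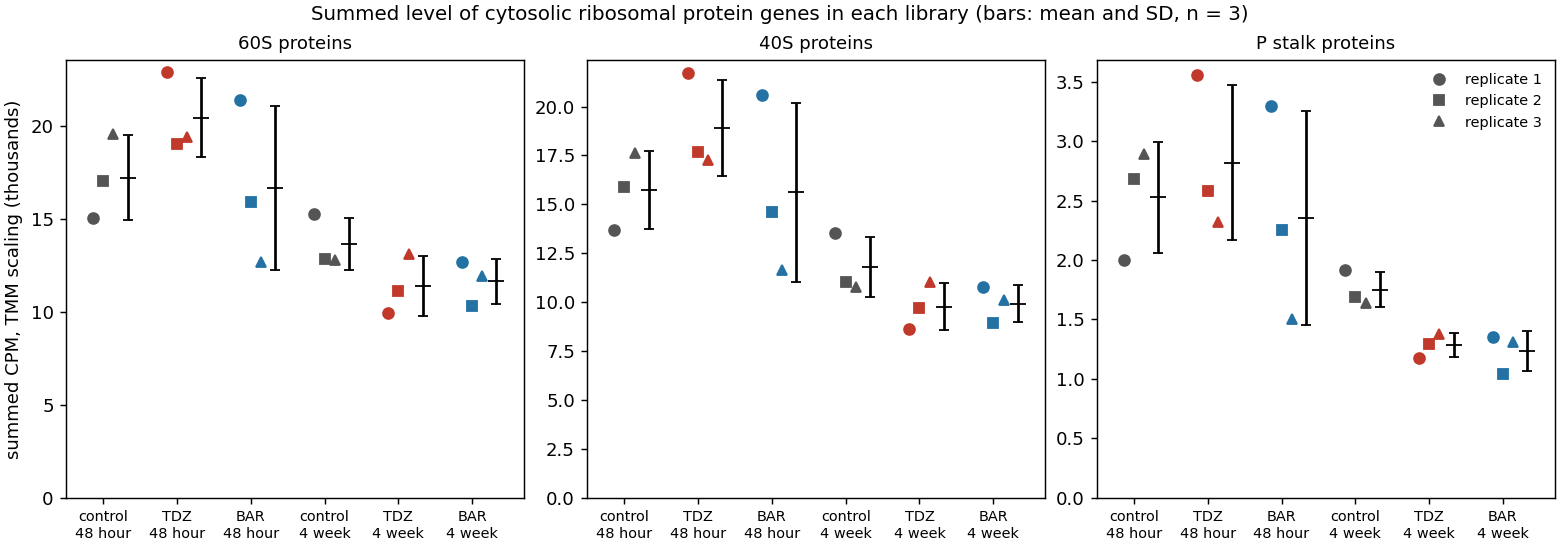
Summed level of the large subunit, small subunit and stalk genes in CPM (TMM scaling; the axis is divided by 1000), one point per library, with the mean and SD of each group of 3 as a bar. Large subunit means at 48 hours were 17235, 20464 and 16680 CPM in control, TDZ and BAR. At 4 weeks they were 13652, 11397 and 11661 CPM. For the sum of all members, the 4 week order of control above TDZ and BAR turns over with library totals alone. Sums with totals alone were not made for each panel, and the turn need not hold in each.

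The small subunit sum lay below the large subunit sum in every library, by more at 4 weeks. Small subunit means were 15730, 18887 and 15606 CPM at 48 hours in control, TDZ and BAR, and 11793, 9773 and 9926 CPM at 4 weeks. Per library the small subunit sum was 0.889 to 0.960 of the large subunit sum at 48 hours and 0.840 to 0.886 at 4 weeks, with no overlap between the times (group means of 0.913 to 0.931 and 0.852 to 0.862). Stalk genes summed to 2528, 2819 and 2351 CPM at 48 hours and to 1748, 1283 and 1235 CPM at 4 weeks. By family, 74 of 79 had a lower mean FPKM in 4 week than in 48 hour controls, 75 of 79 with TDZ and 77 of 79 with BAR. These sums and family counts were not tested.

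At 48 hours no member passed the test (Benjamini-Hochberg adjusted p under 0.05, edgeR quasi-likelihood) in any of the comparisons of TDZ with control, BAR with control or TDZ with BAR. The share of all 26053 tested genes called was 0% in each. At an unadjusted p under 0.05 the members numbered 15, 0 and 30, beside 5.52%, 2.66% and 7.56% of all genes. DESeq2 called 0 members in each, and 0.395%, 0.0192% and 0.58% of all genes. The signs were nevertheless uneven. With TDZ 220 of 256 members lay above the control (85.9%, against 51.3% of all genes), with a median log2 fold change of 0.19 beside 0.01 for all genes. The 94 of 104 small subunit, 115 of 140 large subunit and 11 of 12 stalk genes on the positive side shared this tilt. For BAR 99 of 256 members lay above the control, with a median of -0.05. Both comparisons use the same control libraries.

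Single libraries set these 48 hour medians. The median for TDZ against control was 0.08 without control replicate 1, 0.14 without TDZ replicate 1 and 0.30 without control replicate 3. That for BAR against control changed sign, from -0.25 without BAR replicate 1 to 0.11 without BAR replicate 3 and 0.07 without control replicate 3. For TDZ against BAR it was 0.23, and 0.09 without BAR replicate 3 or 0.43 without BAR replicate 1. Even among the controls, the number of members above the control mean was 41, 123 and 228 of 256 in replicates 1, 2 and 3, and among BAR libraries 218, 83 and 31.

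The members of smallest unadjusted p for TDZ at 48 hours came from S15a and L35a. S15a-1 DVH24_023137 stood at 268, 292 and 260 CPM in controls, 672, 415 and 350 CPM with TDZ, and 357, 202 and 213 CPM with BAR. All 3 TDZ libraries lay above the controls. The log2 difference from control was 0.81 ± 0.26 (SE, adjusted p = 0.66) and that from BAR 0.90 ± 0.26 (adjusted p = 0.45). Another S15a-1 gene, DVH24_024096, differed from control by 0.85 (adjusted p = 0.73) and L35a-1 DVH24_036066 by 0.67 (adjusted p = 0.73). Against BAR, L35a-1 DVH24_026624 differed by 0.61 and L37-3 DVH24_031435 by 0.79 (adjusted p = 0.47 each). For BAR against control the smallest p belonged to weakly expressed genes, a pair named L13a-1 (DVH24_010400 and DVH24_015997, log2 differences of -1.78 and 1.28) and S4 DVH24_022912 (-1.43), each with an adjusted p of 1. The most abundant member, L15 DVH24_035900, stood at 845, 881 and 785 CPM in controls and 2028, 1252 and 986 CPM with TDZ (log2 difference 0.76 ± 0.31, adjusted p = 0.81).

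Between 48 hours and 4 weeks without cytokinin, 66 of 256 members fell and 4 rose, where 21% of all genes fell and 15.7% rose. In either direction this was 27.3% of members against 36.7% of all genes. The median log2 change was -0.43 for members and -0.04 for all genes (-0.63 and -0.24 with totals alone). Small subunit genes fell in 34 of 104 cases and rose in 0, with a median of -0.46. Of the large subunit 30 of 140 fell and 4 rose (median -0.39), and of the stalk 2 of 12 fell (median -0.48). The count of members that fell was 25 without 4 week control replicate 2, 28 without 4 week control replicate 3, 32 without 48 hour control replicate 3 and 42 without 48 hour control replicate 2. The count that rose was 2 without 48 hour control replicate 3. Shares of all genes are not given for these fits, so whether the moves are particular to the members was not tested. Without the doubtful TDZ library, which enters through the shared dispersion, 76 fell and 5 rose, beside 23.2% and 18.4% of all genes.

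Members changed within a narrow band. The central 80% of their log2 changes over time spanned 1.10, against 4.61 for all genes, and 12.1% of members changed by more than 2-fold in the estimate against 41.2% of all genes. For TDZ against control at 4 weeks the spans were 1.02 and 3.93, and for BAR against control 1.10 and 3.73. Across the 6 group means the range of a member was 0.97 in the median on the log2 scale, against 1.28 for all genes. It exceeded 4-fold for 8 of 256 members and for 6906 of 26053 genes. All genes were not matched to the members for level, and how far level accounts for the narrower band was not tested.

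**Figure D2:**
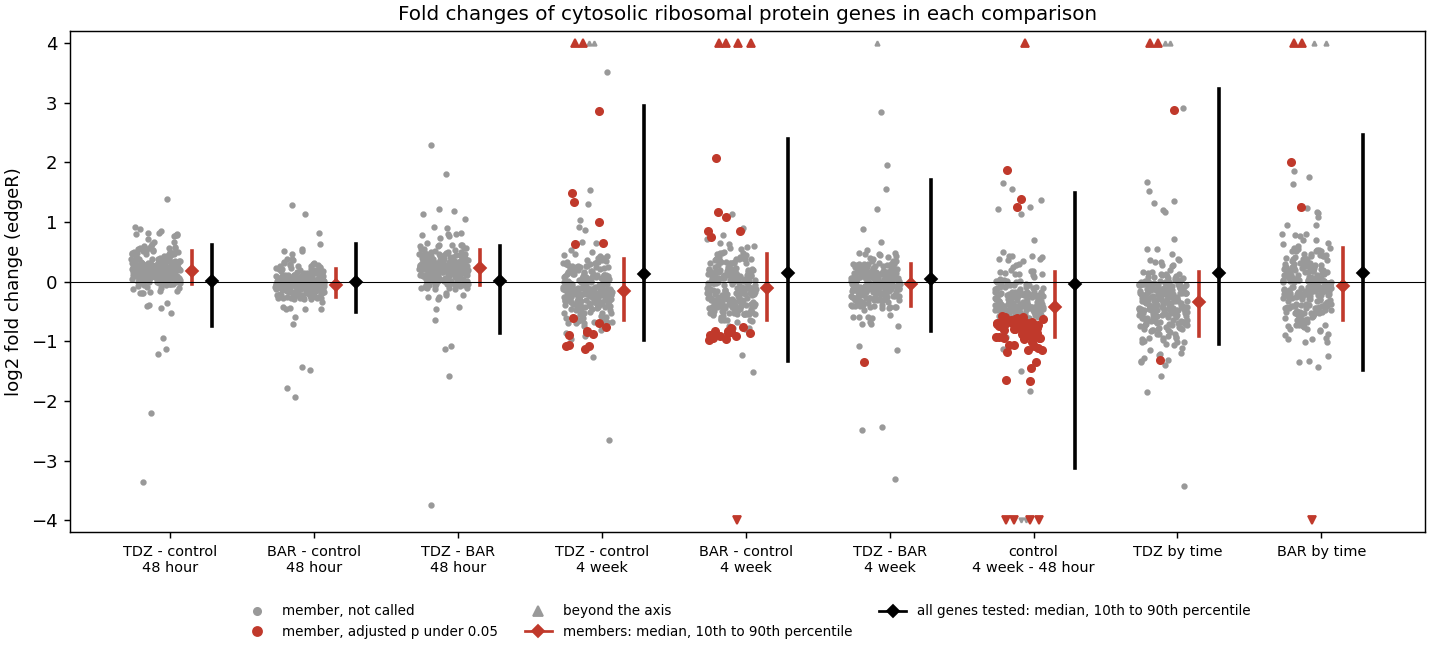
Log2 fold change of each tested member in the 9 comparisons (red points, adjusted p under 0.05; grey points, not called; triangles, beyond the axis). Diamonds with lines give the median and the 10th to 90th percentile for members (red) and all tested genes (black): at 48 hours no point is red, in the controls over time the members centre on -0.43, and the median of members at 4 weeks against control is below 0 with TMM scaling (-0.16 and -0.11) but above 0 with totals alone (0.21 and 0.19).

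Among members of at least 5 CPM at 48 hours that fell in the controls, S24-1 DVH24_028931 had the lowest fold change. It stood at 12.2, 8.58 and 11.5 CPM at 48 hours and at 0.327, 0.545 and 1.03 CPM at 4 weeks, a log2 change of -4.10 ± 0.66 (adjusted p = 0.00069). The groups did not overlap. S30 DVH24_029667, a small protein of the 40S subunit, stood at 39.5, 39.3 and 50.7 CPM at 48 hours and at 22.6, 11.8 and 13.1 CPM at 4 weeks. Every 4 week library lay below every 48 hour library (log2 change -1.45 ± 0.28, adjusted p = 0.0015). L14-1 DVH24_028765 fell by 1.67 on the log2 scale (adjusted p = 0.0017), and the second L14-1 gene, DVH24_010577, by 1.17 (adjusted p = 0.00086). S27a DVH24_009339, which encodes ubiquitin fused to a 40S protein, fell by 1.65 (adjusted p = 0.0071). The calls of these 5 genes held under every one of the 24 alternative settings for this comparison.

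Some abundant members fell by less. L15 DVH24_035900 fell from 837 ± 48.4 to 464 ± 91.3 CPM (n = 3 each; log2 change -0.85, adjusted p = 0.043), but the call was lost without any 1 of 10 libraries, with adjusted p up to 0.14 without 4 week control replicate 3. S23 DVH24_038787 fell by 0.94 on the log2 scale (adjusted p = 0.024) and S15a-1 DVH24_023137 by 0.80 (adjusted p = 0.027). Their calls were lost without 4 week control replicate 2 or 3 or 48 hour control replicate 2, and that of S23 also without 48 hour control replicate 1, with adjusted p up to 0.098 and 0.099. S9-2 DVH24_037127 (-0.30, adjusted p = 0.40), S2-4 DVH24_013203 (-0.34, adjusted p = 0.39) and L10 DVH24_038322 (-0.23, adjusted p = 0.57) did not pass.

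The 4 members that rose in the controls over time were all large subunit genes, 2 of them L10. L10 joins the 60S subunit late in its maturation, and in Arabidopsis it is also the substrate of the receptor kinase NIK1 in antiviral signalling. L10 DVH24_024462 stood at 0.774, 1.58 and 2.68 CPM at 48 hours and at 44.6, 139 and 136 CPM at 4 weeks, a log2 change of 5.98 ± 1.21 (adjusted p = 0.0020). L10 DVH24_022820 stood at 89.3, 119 and 115 CPM and then at 294, 273 and 280 CPM, a log2 change of 1.39 ± 0.31 (adjusted p = 0.0034). Neither pair of groups overlapped, and the calls held under each alternative that gave a value, 23 and 24 of them. L15 DVH24_019130, a weakly expressed gene, rose from 2.18 ± 0.498 to 5.18 ± 0.909 CPM (log2 change 1.25 ± 0.46, adjusted p = 0.043) while the abundant L15 gene fell. Its call held under 9 of 24 alternatives, with adjusted p up to 0.13.

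The last of the 4, L27-3 DVH24_011053, rested on a single library for most of its size. It stood at 11.5, 15.2 and 12.8 CPM in 48 hour controls and at 102, 14.5 and 27.9 CPM in 4 week controls (log2 change 1.87 ± 0.65, adjusted p = 0.034). Its second 4 week control lay within the 48 hour range. The call held under 18 of 24 alternatives, was lost without any one of the 48 hour controls, and reached an adjusted p of 0.35 without 4 week control replicate 1. With TDZ at 4 weeks the gene stood at 34.6, 34.5 and 131 CPM and with BAR at 49.0, 40.6 and 18.8 CPM.

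After 4 weeks on TDZ, 11 of 256 members were called lower than in the control and 8 higher, where 9.72% of all genes were lower and 16.8% higher. Without the library that went against its label the counts were 28 lower and 11 higher, beside 17.9% and 23% of all genes. The median log2 fold change of members was -0.16 and that of all genes 0.14; with totals alone these became 0.21 and 0.51, so that members lay 0.30 below all genes on either scale. With totals alone 2 members were called lower and 29 higher, beside 4.97% and 27.5% of all genes. The members called lower were 6 of the large subunit, 4 of the small subunit and 1 of the stalk, and those called higher 3, 4 and 1. Rare members without a count in the controls are part of the latter and are given further on.

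L4, whose long loop lines the tunnel through which the new protein leaves the 60S subunit, was the family most often called with TDZ. L4 DVH24_018883 stood at 98.7, 135 and 129 CPM in 4 week controls, at 49.7, 57.4 and 59.2 CPM with TDZ and at 99.9, 54.7 and 98.1 CPM with BAR. All 3 TDZ libraries lay below the controls, the library that went against its label among them. The log2 fold change was -1.13 ± 0.26 (adjusted p = 0.0062), and the call held under all 25 alternatives, with adjusted p from 0.00033 to 0.047. L4 DVH24_001569 stood at 323, 399 and 386 CPM in controls and at 161, 190 and 171 CPM with TDZ (log2 fold change -1.09 ± 0.29, adjusted p = 0.013). L4 DVH24_004565 stood at 353, 492 and 485 CPM and at 194, 225 and 220 CPM (-1.06 ± 0.27, adjusted p = 0.011). Neither of these overlapped its controls. Their calls held under 22 and 23 of 25 alternatives and were lost with totals alone (adjusted p = 0.069 and 0.062) and without TDZ replicate 1 (0.058 and 0.054); that of DVH24_001569 was also lost in a fit of the 4 week libraries alone (0.051).

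Other members lower with TDZ included L12 DVH24_004627, which sits at the base of the stalk, and S3-3, whose protein lies at the entry of the messenger RNA channel. L12 DVH24_004627 stood at 120, 103 and 96.4 CPM in controls and at 44.3, 55.5 and 72.5 CPM with TDZ, with no overlap (log2 fold change -0.89, adjusted p = 0.023). S3-3 DVH24_020504 stood at 150, 154 and 175 CPM with TDZ, below all controls (-0.84, adjusted p = 0.025), and S3-3 DVH24_029499 had -0.70 (adjusted p = 0.031). These 3 calls held under 19, 19 and 17 of 25 alternatives. They were lost with totals alone, in a fit of the 4 week libraries alone and without TDZ replicate 1, TDZ replicate 2 or 4 week control replicate 2, with adjusted p up to 0.11, 0.145 and 0.22; leaving out 4 week control replicate 1 also ended the L12 and DVH24_029499 calls, and 4 week control replicate 3 those of both S3-3 genes.

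S10-1 DVH24_019950 (-0.83, adjusted p = 0.044) and S9-2 DVH24_037127 (-0.76, adjusted p = 0.045) passed by a small margin, and were called under 9 and 8 of the 25 alternatives with adjusted p up to 0.19 and 0.26. S10-1 stood at 239, 284 and 250 CPM in controls, at 104 and 119 CPM in TDZ replicates 1 and 2 and at 211 CPM in replicate 3. Without replicate 3 its log2 fold change was -1.21 (adjusted p = 0.0024).

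On TDZ the L10 genes that had risen in the controls stood lower in replicates 1 and 2. In replicate 3 DVH24_022820 was also below the controls, by less, while DVH24_024462 was not. L10 DVH24_022820 had 89.4, 86.7 and 223 CPM, against 294, 273 and 280 CPM in the controls, a log2 fold change of -1.09 ± 0.31 (adjusted p = 0.018) and of -1.68 (adjusted p = 3.6e-05) without replicate 3. The call was lost without TDZ replicate 1 (adjusted p = 0.094), without TDZ replicate 2 (0.092) and in a fit of the 4 week libraries alone (0.081). L10 DVH24_024462 had 3.35, 4.91 and 126 CPM, against 44.6, 139 and 136 CPM. Its first 2 TDZ libraries lay below every control and the third within the control range, with a log2 fold change of -1.26 (95% interval -3.31 to 0.79, adjusted p = 0.36) that became -4.69 (adjusted p = 7e-05) without the third. The abundant L10 DVH24_038322 stood at 595, 445 and 526 CPM in controls and 332, 306 and 339 CPM with TDZ, with no overlap and a log2 fold change of -0.68 (adjusted p = 0.095).

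The members called higher with TDZ were mostly of low level. S24-1 DVH24_028931, the gene with the deepest fall in the controls, stood at 7.10, 5.46 and 0.966 CPM with TDZ against 0.327, 0.545 and 1.03 CPM. Replicates 1 and 2 lay above the controls and replicate 3 among them (log2 fold change 2.85 ± 0.63, adjusted p = 0.0056; 3.33 without replicate 3). Of the 25 alternatives only the fit of the 4 week libraries alone lost this call (adjusted p = 0.059). L6-3 DVH24_006667 stood at 2.84, 4.67 and 3.42 CPM in controls and 12.8, 13.7 and 4.19 CPM with TDZ (1.49 ± 0.44, adjusted p = 0.021; 1.86 without replicate 3), again with replicate 3 at the control level. S27a DVH24_009339 differed by 1.34 ± 0.42 (adjusted p = 0.027), L14-1 DVH24_028765 by 0.99 (adjusted p = 0.034) and L14-1 DVH24_010577 by 0.64 (adjusted p = 0.027). Each of these 4 calls was lost in a fit of the 4 week libraries alone and without TDZ replicate 1, TDZ replicate 2 or 4 week control replicate 3, and also without 4 week control replicate 1 for L6-3 and replicate 2 for the other 3, with adjusted p up to 0.094, 0.12, 0.14 and 0.13. S8 DVH24_034171 differed by 0.65 (adjusted p = 0.049) and was called under 9 of 25 alternatives, with adjusted p up to 0.20. L38 DVH24_021118 passed only without replicate 3 (1.63, adjusted p = 0.049).

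These counts moved with single libraries. Leaving out a library changes the calls of all genes too, with 23% higher and 17.9% lower without TDZ replicate 3. For the other libraries the shares of all genes are not given, so whether the moves are particular to the members was not tested. The 8 members called higher became 1 without 4 week control replicate 3 or TDZ replicate 1, 2 without 4 week control replicate 2 or TDZ replicate 2, and 13 without 4 week control replicate 1. The 11 called lower became 1 without TDZ replicate 1, 3 without TDZ replicate 2, 5 without 4 week control replicate 2 or 3, and 28 without TDZ replicate 3. They became 17 without 48 hour BAR replicate 1, and 7 without any 1 of 8 other libraries: the 3 controls at 48 hours, replicate 2 of BAR and of TDZ at 48 hours, replicate 1 of the 4 week control and replicates 1 and 3 of BAR at 4 weeks.

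**Figure D3:**
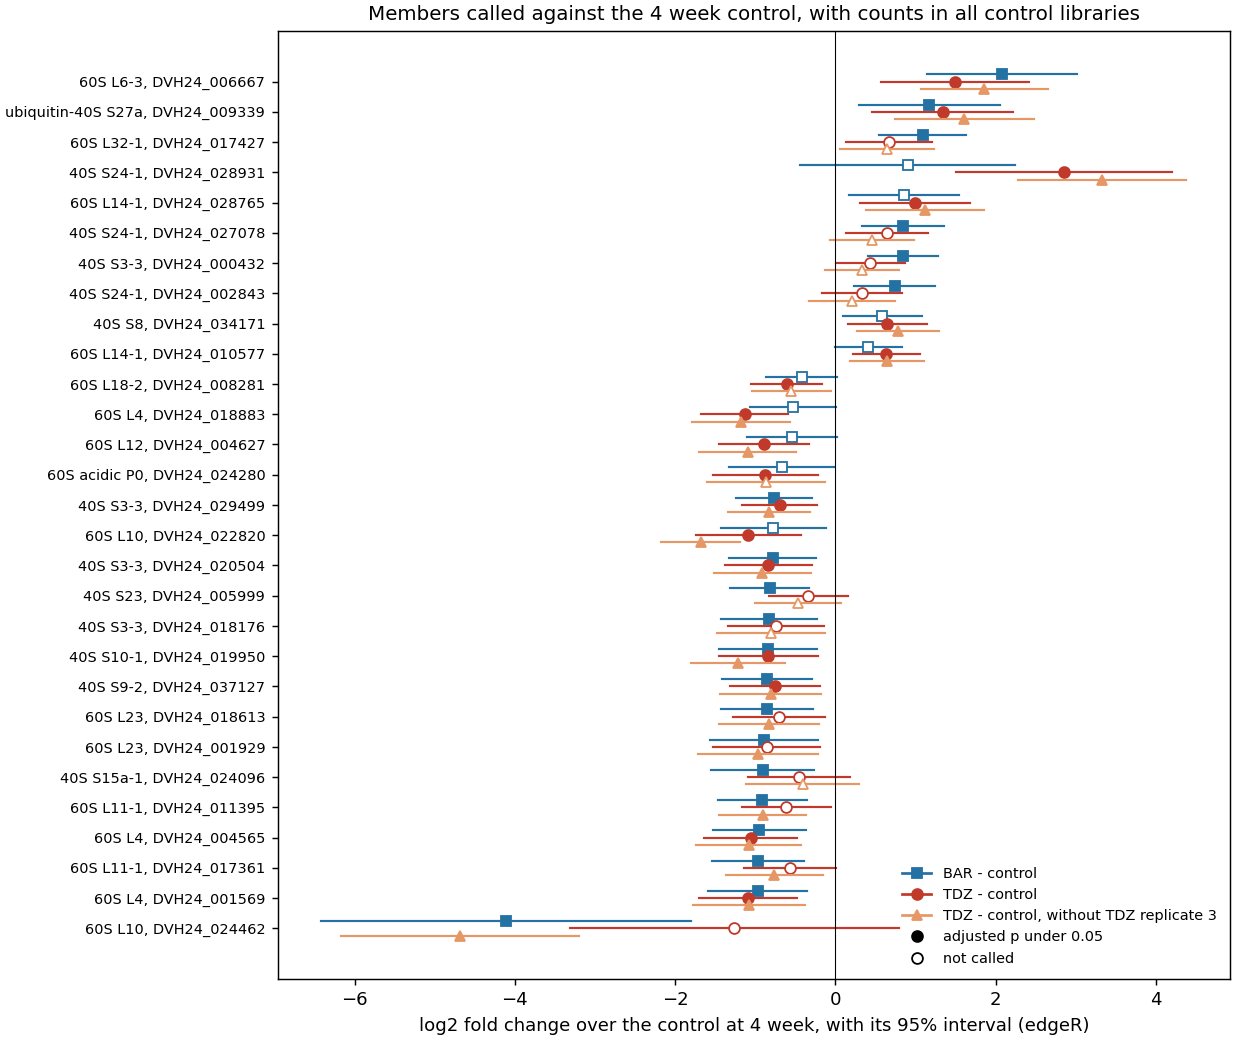
Log2 fold change against the 4 week control, with 95% intervals, of the 29 members called for BAR or TDZ that had counts in all 4 week controls: BAR (blue squares), TDZ (red circles) and TDZ without replicate 3 (orange triangles), filled where the adjusted p was under 0.05. The 3 L4 genes and the S3-3 genes DVH24_020504, DVH24_029499 and DVH24_018176 lie left of 0 for both cytokinins, while S3-3 DVH24_000432 (0.84 with BAR), L6-3 (1.49 with TDZ, 2.08 with BAR) and S27a DVH24_009339 (1.34 and 1.17) lie right of 0; scaling by totals alone moves all points to the right.

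After 4 weeks on BAR, 14 of 256 members were called lower and 10 higher, beside 12.7% and 17.2% of all genes. The median log2 fold change was -0.11 for members and 0.14 for all genes, and with totals alone 0.19 and 0.44. Totals alone gave 3 members lower and 35 higher, beside 8.73% and 24.7% of all genes. The members called lower were 7 of each subunit, and those called higher 5 of the small subunit, 4 of the large subunit and 1 of the stalk. TDZ and BAR were set against the same control libraries, so a gene called for both is not 2 separate observations.

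L10 DVH24_024462 had the lowest fold change with BAR. It stood at 5.89, 8.22 and 4.46 CPM against 44.6, 139 and 136 CPM in the 4 week controls, with no overlap (log2 fold change -4.11 ± 1.09, adjusted p = 0.011). The call was lost in a fit of the 4 week libraries alone (adjusted p = 0.057) and held under the other 23 alternatives that gave a value. L10 DVH24_022820 stood at 190, 157 and 148 CPM, below all controls, with a fold change of -0.77 that did not pass (adjusted p = 0.068). L4 DVH24_001569, at 211, 122 and 233 CPM, and L4 DVH24_004565, at 259, 172 and 259 CPM, lay below all their controls with fold changes of -0.97 (adjusted p = 0.020) and -0.95 (adjusted p = 0.017). Both calls were lost with totals alone (adjusted p = 0.072 and 0.066) and without BAR replicate 2 (0.089 and 0.075), 4 week control replicate 2 (0.064 and 0.060) or 4 week control replicate 3 (0.059 and 0.058). L4 DVH24_018883 did not pass (-0.52, adjusted p = 0.13).

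L11-1 DVH24_017361, whose protein binds the 5S ribosomal RNA together with L5, stood at 182, 238 and 230 CPM in controls and at 121, 103 and 110 CPM with BAR. The groups did not overlap (log2 fold change -0.96 ± 0.27, adjusted p = 0.015), and the call was lost by a small margin without BAR replicate 2 or 3 or 4 week control replicate 2 or 3 (adjusted p = 0.0502 to 0.055). L23 DVH24_001929, of the 60S face that meets the 40S subunit, had -0.89 (adjusted p = 0.044, called under 10 of 25 alternatives). Among small subunit genes S15a-1 DVH24_024096 had -0.91 (adjusted p = 0.034, 17 of 25), S9-2 DVH24_037127 had -0.85 (adjusted p = 0.025, 19 of 25) and S10-1 DVH24_019950 had -0.84 (adjusted p = 0.039, 12 of 25). Each of these 4 was lost with totals alone, without any one of the 4 week BAR libraries and without 4 week control replicate 2, with adjusted p over their alternatives up to 0.13, 0.13, 0.094 and 0.11.

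S3 was the family with paralogs called in opposite directions by BAR. S3-3 DVH24_020504 stood at 274, 305 and 276 CPM in controls and at 183, 130 and 184 CPM with BAR (log2 fold change -0.78 ± 0.26, adjusted p = 0.031). S3-3 DVH24_029499 (-0.76, adjusted p = 0.018) and S3-3 DVH24_018176 (-0.83, adjusted p = 0.037) were also lower. The weakly expressed S3-3 DVH24_000432 stood at 8.84, 12.4 and 9.78 CPM in controls and at 17.5, 18.8 and 19.3 CPM with BAR, a log2 fold change of 0.84 ± 0.20 (adjusted p = 0.0069) called under all 25 alternatives. With totals alone the calls of the 3 lower S3-3 genes were lost (adjusted p = 0.12, 0.080 and 0.13), as they were without BAR replicate 2 (0.12, 0.084 and 0.14). Those of DVH24_020504 and DVH24_018176 were also lost without 4 week control replicate 2 or 3 and without BAR replicate 1 or 3 (0.056 to 0.090), and that of DVH24_018176 without 4 week control replicate 1 (0.0503).

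Among other members higher with BAR, L6-3 DVH24_006667 stood at 15.3, 17.3 and 13.5 CPM against 2.84, 4.67 and 3.42 CPM, with no overlap (log2 fold change 2.08 ± 0.44, adjusted p = 0.0036). L32-1 DVH24_017427 stood at 23.7, 16.8 and 23.4 CPM against 14.6, 7.46 and 7.95 CPM (1.09 ± 0.25, adjusted p = 0.0058). Both were called under all 25 alternatives. S24-1 DVH24_027078 (0.84, adjusted p = 0.017) and S27a DVH24_009339 (1.17, adjusted p = 0.043) were higher as well. The S24-1 call was lost in a fit of the 4 week libraries alone (adjusted p = 0.060) and without BAR replicate 1 (0.058) or 4 week control replicate 2 (0.074) or 3 (0.077). The S27a call held under 10 of 25 alternatives and was lost without any 4 week BAR library, with adjusted p up to 0.17 without 4 week control replicate 2.

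Leaving out single libraries moved the BAR counts too. Shares of all genes are given only for the fit without TDZ replicate 3, so whether the moves are particular to the members was not tested. The 10 members called higher became 6 without 4 week control replicate 2, 4 week control replicate 3 or BAR replicate 1, and 18 without 4 week control replicate 1. The 14 called lower became 1 without BAR replicate 2, 4 without 4 week control replicate 2, 5 without BAR replicate 3, 6 without 4 week control replicate 3 and 7 without BAR replicate 1. Without TDZ replicate 3, which enters through the shared dispersion and the filter, they were 14 higher and 18 lower, beside 21.1% and 15.5% of all genes.

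A few rare members had no count in any 4 week control library, so that their fitted fold changes give no size; they were chosen after their values were seen. Against the limit set by 3 counts over the control group, P1 DVH24_010501 was at least 41.2-fold higher with BAR and at least 7.15-fold higher with TDZ. S24-1 DVH24_017575 was at least 11.5-fold higher with BAR and at least 7.16-fold with TDZ. L19-1 DVH24_025248 and L31 DVH24_038167 were at least 16-fold and 13-fold higher with BAR. The sums behind these were small, with 138 counts of P1 DVH24_010501 over the 3 BAR libraries, 31 over the TDZ libraries, and 28 to 54 for each of the other called genes. The 4 genes had 15 to 27 counts over the 48 hour controls. They are part of the counts of members called higher, 4 of 10 with BAR and 2 of 8 with TDZ, and they entered the test only through groups in which they had counts. Another, L15 DVH24_022749, had 40 counts in TDZ replicates 1 and 2 and 0 counts in TDZ replicate 3, in the 4 week controls and with BAR at 4 weeks. It was at least 9.07-fold higher with TDZ than in the controls and at least 10.3-fold higher than with BAR, but neither comparison passed the test (adjusted p = 0.10 and 0.17), and without TDZ replicate 3 only that with the controls did (adjusted p = 0.046). Placing the called genes at their limits leaves the medians as given, since they remain on the same side.

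TDZ and BAR, given at the same dose, differed at 4 weeks in 1 of 256 members, beside 4.42% of all genes higher and 3.98% lower with TDZ. L32-1 DVH24_011343 stood at 36.1, 40.3 and 56.3 CPM with TDZ, at 123, 91.4 and 122 CPM with BAR and at 91.0, 62.1 and 61.4 CPM in controls. Every TDZ library lay below every other 4 week library (log2 difference -1.34, 95% interval -1.98 to -0.70, adjusted p = 0.016). The call was lost without BAR replicate 1 (adjusted p = 0.082), BAR replicate 3 (0.067) or TDZ replicate 1 (0.062) and in a fit of the 4 week libraries alone (0.065). Its paralog L32-1 DVH24_017427 differed by -0.42 (interval -0.95 to 0.11). In the other members a difference between the cytokinins did not pass the test, and the intervals were wide. That of L4 DVH24_001569 ran from -0.72 to 0.49, that of S3-3 DVH24_020504 from -0.59 to 0.48, that of S9-2 DVH24_037127 from -0.46 to 0.66, and that of L6-3 DVH24_006667 from -1.48 to 0.31.

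Without TDZ replicate 3, 1 member was higher and 3 were lower with TDZ than with BAR, beside 8.47% and 6.97% of all genes. They were S24-1 DVH24_028931 (2.42, adjusted p = 0.0022), L32-1 DVH24_011343 (-1.55, adjusted p = 0.0042), L10 DVH24_022820 (-0.91, adjusted p = 0.012) and S5 DVH24_000938 (-0.80, adjusted p = 0.025). Without 4 week control replicate 1, 1 member was called higher with TDZ than with BAR. The share of all genes in that fit is not given here.

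Whether a cytokinin difference at 4 weeks departed from that at 48 hours was tested as an interaction with time. For TDZ it was called in 3 members as higher and 1 as lower, beside 5.44% and 2.14% of all genes, and for BAR in 4 and 1, beside 6.7% and 4.69%. Those called higher for both cytokinins include the rare P1 DVH24_010501 and S24-1 DVH24_017575. These rare genes had no count in the 4 week controls and entered the test only through groups in which they had counts. Their fitted interactions give no size. Without TDZ replicate 3 the counts were 6 and 26 for TDZ (15.9% and 10.8% of all genes) and 8 and 2 for BAR (12.9% and 9.07%). L4 DVH24_018883 had a TDZ interaction of -1.31 ± 0.36 (adjusted p = 0.039), since at 48 hours it stood at 74.9, 101 and 123 CPM in controls and at 113 ± 2.99 CPM with TDZ. L10 DVH24_024462 had a BAR interaction of -5.24 ± 1.5 (adjusted p = 0.037). Both were lost when any of several libraries was left out: the calls held under 8 of 24 and 13 of 23 alternatives, with adjusted p up to 0.10 and 0.090.

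The interaction counts were as unstable. Shares of all genes are not given for the fits below, so whether the moves are particular to the members was not tested. For TDZ the 3 called higher became 0 without any 1 of 10 libraries (48 hour control replicates 1 and 3, 48 hour TDZ replicates 1 and 2, 4 week control replicates 2 and 3, 4 week BAR replicates 1 and 3, 4 week TDZ replicates 1 and 2), and 1 without 48 hour control replicate 2, 48 hour BAR replicates 2 or 3 or 48 hour TDZ replicate 3. The 1 called lower became 0 without the same 10 libraries, 48 hour control replicate 2 or 48 hour BAR replicate 2, became 2 without 48 hour BAR replicate 3 or 4 week BAR replicate 2, and became 4 without 48 hour BAR replicate 1 or 4 week control replicate 1. For BAR the 4 called higher became 0 without 4 week control replicate 2 or BAR replicate 1. They became 1 without any 48 hour control, 48 hour BAR replicate 1 or 2, 4 week control replicate 3 or 4 week BAR replicate 3, and 2 without 48 hour BAR replicate 3, 48 hour TDZ replicate 2 or 4 week BAR replicate 2. They became 7 without 4 week control replicate 1. The 1 called lower became 0 without any 48 hour control, 48 hour BAR replicate 1 or 2, 4 week control replicate 2 or 3 or any 4 week BAR library, 2 without any 4 week TDZ library and 3 without 48 hour BAR replicate 3.

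In some families, picked for their role, for called genes or for a change of share, paralogs did not keep fixed shares of the family level. How many families kept stable shares was not counted. In the L10 family DVH24_038322 held 61.0% of the FPKM in 48 hour controls and 44.9% in 4 week controls, while DVH24_022820 held 10.7% and 23.8% and DVH24_024462 held 0.187% and 10.8%. At 4 weeks DVH24_024462 held 6.25% of the family with TDZ, mostly through replicate 3, and 1.07% with BAR. In the L27 family the share of DVH24_011053 was 11.8 ± 1.82% in 48 hour controls, 31.1 ± 20.4% in 4 week controls, 48.0 ± 13.6% with TDZ and 35.5 ± 11% with BAR (SD, n = 3). Its paralog DVH24_017001 held 63.1%, 50%, 36.3% and 46.0%. In TDZ replicates 1, 2 and 3 the share of DVH24_011053 was 39.7%, 40.6% and 63.6% and that of DVH24_017001 was 41.6%, 40.5% and 26.7%, so that the order of their means with TDZ came from replicate 3.

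**Figure D4:**
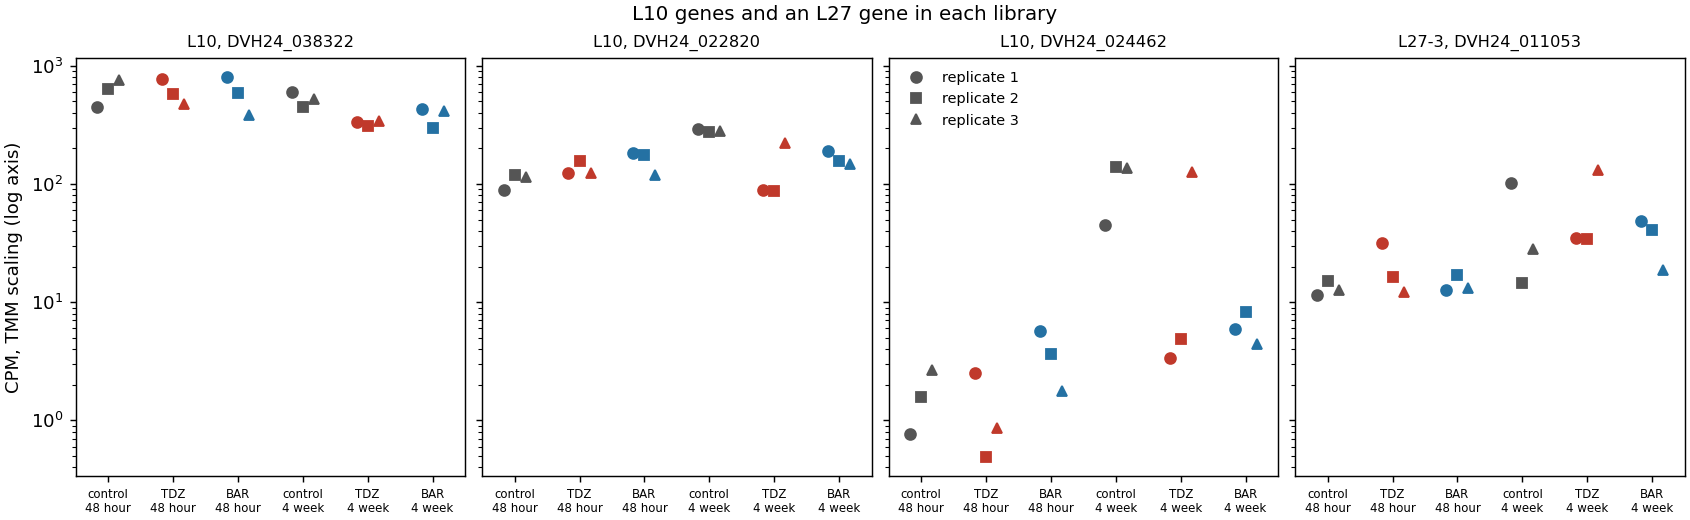
CPM per library, on a log axis, of 3 L10 genes and of L27-3 DVH24_011053 in the 6 groups. L10 DVH24_038322 stays between 295 and 801 CPM, DVH24_024462 stands at 44.6 to 139 CPM in 4 week controls and at 126 CPM in the TDZ library that went against its label but below 10 CPM in all others, and L27-3 is spread within its 4 week groups.

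The order of near-equal paralogs also turned over by small amounts. The L12 genes DVH24_038850 and DVH24_004627 held 50.2% and 49.8% in 48 hour controls, 43.3% and 56.7% in 4 week controls, 53.5% and 46.5% with TDZ and 44.4% and 55.6% with BAR. In TDZ replicates 1, 2 and 3 DVH24_038850 held 61.0%, 53.6% and 45.8%. In S9, DVH24_037127 held 56.5% in 48 hour controls, 53.2% in 4 week controls, 50.1% with TDZ and 47.7% with BAR, and 48.1%, 48.9% and 53.2% in TDZ replicates 1, 2 and 3. Shares were not tested.

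Members with particular roles mostly followed the rest. Of the stalk, P1 DVH24_011983 had a log2 change of -0.38 in controls over time (adjusted p = 0.29), P3-1 DVH24_018895 of -0.66 (adjusted p = 0.091), and P0 DVH24_022978 fell by 0.87 (adjusted p = 0.048, called under 8 of 24 alternatives with adjusted p up to 0.14). S6, the 40S protein that S6 kinase phosphorylates downstream of the TOR kinase, had 2 expressed genes. S6-1 DVH24_042565 fell by 0.62 (adjusted p = 0.042, called under 13 of 24 alternatives with adjusted p up to 0.16), while S6-1 DVH24_016789 had -0.44 (adjusted p = 0.18); a gene named S6 (DVH24_020770) had counts in 1 library only. Against control at 4 weeks neither S6-1 gene passed for TDZ (-0.41 and -0.30) or BAR (-0.14 and -0.17), for DVH24_016789 and DVH24_042565 in that order.

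Ubiquitin fusions, which release ubiquitin as well as a ribosomal protein, behaved unevenly. S27a DVH24_033654 stood at 147, 181 and 196 CPM in 48 hour controls and at 102, 74.1 and 72.3 CPM in 4 week controls (log2 change -1.07 ± 0.25, adjusted p = 0.0042, called under all 24 alternatives). The other abundant S27a genes, DVH24_035537 and DVH24_030694, had -0.23 and -0.26 (adjusted p = 0.53 and 0.44). L40 DVH24_019215 fell by 0.62 (adjusted p = 0.020; up to 0.091 without 4 week control replicate 2 or 48 hour control replicate 3), and L40 DVH24_024965 and DVH24_034900 had -0.34 and -0.48 (adjusted p = 0.35 and 0.093). Of S27, a different protein with a zinc finger, S27-3 DVH24_041102 fell by 1.14 (adjusted p = 0.0080), and S27-2 DVH24_025201 had a log2 fold change of -0.68 with TDZ at 4 weeks (adjusted p = 0.093) that was -1.04 without replicate 3 (adjusted p = 0.0076). L5 DVH24_016417 did not fall in the controls over time (0.25, adjusted p = 0.45) and with TDZ had -0.46 (adjusted p = 0.19), or -0.75 without replicate 3 (adjusted p = 0.022). L5 DVH24_013989 had no count in any library.

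Other genes of translation were set beside the members. Of 70 tested ribosome assembly factors, which build the subunits, 15.7% (11 genes) rose and 1.43% (1 gene) fell in the controls over time, where 15.7% of all genes rose and 21% fell. Of 90 cytosolic translation factors 21.1% (19) rose and 5.56% (5) fell. Their medians were 0.24 and 0.21, where that of the ribosomal proteins was -0.43. With totals alone the medians became 0.04, 0.01 and -0.63, and the assembly factors had 4 genes that rose and 5 that fell. The shares of all genes above come from TMM scaling and are not the background of these last counts.

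With TDZ at 4 weeks 21.1% of the translation factors (19) were lower and 3.33% (3) higher (median -0.28), and with BAR 16.7% (15) and 3.33% (3) (median -0.17). The shares of all genes were 9.72% lower and 16.8% higher with TDZ and 12.7% and 17.2% with BAR. Without TDZ replicate 3 the TDZ counts were 29 of 93 lower and 7 higher, beside 17.9% and 23% of all genes, and with totals alone 6 of 90 lower and 7 higher. Assembly factors had 4 lower and 3 higher with TDZ (8 and 7 without replicate 3) and 2 lower and 9 higher with BAR. Totals alone made these 0 lower and 12 and 21 higher. The shares of all genes with totals alone were 4.97% lower and 27.5% higher with TDZ, and 8.73% and 24.7% with BAR. Initiation factors eIFiso4G-1 DVH24_017597 (-1.23, adjusted p = 0.0036), eIF4B3 DVH24_009941 (-1.10, adjusted p = 0.0033) and eIF4G DVH24_013885 (-1.27, adjusted p = 0.0054) were lower with TDZ. Of assembly factors, UTP11 DVH24_016404 was higher with TDZ (0.88, adjusted p = 0.0043). Without TDZ replicate 3 the fold changes of these 4 genes were -1.19, -1.17, -1.25 and 0.99, and each was called.

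Of 10 tested genes for the TOR kinase, its partners and S6 kinases, 3 were lower and 1 higher with TDZ (4 and 1 without replicate 3), and 4 lower and 2 higher with BAR; with totals alone these became 1 and 1, and 3 and 2. The shares of all genes were 9.72% lower and 16.8% higher with TDZ (17.9% and 23% without replicate 3), and 12.7% and 17.2% with BAR. With totals alone they were 4.97% and 27.5%, and 8.73% and 24.7%. The TOR partner RAPTOR1 DVH24_014879 stood at 113, 207 and 199 CPM in 4 week controls, at 70.8, 68.1 and 53.2 CPM with TDZ and at 56.5, 41.3 and 68.3 CPM with BAR. Its log2 fold changes were -1.43 (adjusted p = 0.0033) and -1.64 (adjusted p = 0.0011), with no overlap with the controls, and without TDZ replicate 3 the former was -1.32 (adjusted p = 0.0026). TOR DVH24_034438 had -0.77 (adjusted p = 0.027) and -1.07 (adjusted p = 0.0045); its TDZ call was lost with totals alone (adjusted p = 0.34) and without 4 week control replicate 2 (0.11) or 3 (0.085), 48 hour control replicate 1 (0.051), or TDZ replicate 2 (0.056) or 3 (0.062).

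The ribosomal proteins of plastids and mitochondria were also counted; a difference between them and the cytosolic ones was not tested. Of 88 tested, 37.5% (33) fell and 1.14% (1) rose in the controls over time (median -0.56), beside 21% and 15.7% of all genes. With TDZ at 4 weeks 33% (29) were lower and 4.55% (4) higher (median -0.49), beside 9.72% and 16.8% of all genes. Those counts were 37 and 4 without TDZ replicate 3, beside 17.9% and 23% of all genes. With totals alone they were 22 and 8, beside 4.97% and 27.5% of all genes. With BAR 9.09% (8) were lower and as many higher (median -0.06), beside 12.7% and 17.2% of all genes. Against BAR, 17% (15) were lower and 0 higher with TDZ (median -0.57), beside 3.98% and 4.42% of all genes. Without TDZ replicate 3 the counts were 35 and 0, beside 6.97% and 8.47% of all genes. Plastid S5 DVH24_017244 stood at 203, 145 and 142 CPM in controls, at 42.6, 34.1 and 52.9 CPM with TDZ and at 72.6, 59.5 and 77.5 CPM with BAR. The 3 groups did not overlap (log2 fold changes -1.92, adjusted p = 0.00092, and -1.23, adjusted p = 0.0012), and without TDZ replicate 3 the former was -2.09 (adjusted p = 4.4e-06).

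Markers of dividing cells and of shoot tissue moved over the same comparisons. The shoot tissue list held genes named for the small subunit of ribulose bisphosphate carboxylase or for chlorophyll a-b binding proteins. All samples were shoots, so its level need not measure an amount of shoot tissue. Of 56 tested markers of dividing cells 37 fell and 2 rose in the controls over time (median -2.04), and their summed level was 2919 to 4136 CPM in 48 hour controls and 1287 to 1393 CPM in 4 week controls. With TDZ at 4 weeks 26 were higher and 0 lower (median 1.19), and 34 and 3 of 57 without replicate 3 (median 1.43). Their sum was 1926, 2048 and 1256 CPM in TDZ replicates 1, 2 and 3, of which the third lay below the controls. With BAR 5 were higher and 7 lower, with sums of 1176 to 1589 CPM. At 48 hours the sums were 3083 to 3552 CPM with TDZ and 2846 to 3398 CPM with BAR. Of the 72 genes on this list 58 to 62 had a count in a group. Beside both lists of markers, 21% of all genes fell and 15.7% rose in the controls over time. With TDZ 9.72% of all genes were lower and 16.8% higher (17.9% and 23% without replicate 3). With BAR 12.7% of all genes were lower and 17.2% higher. Of 31 tested shoot tissue markers 23 fell and 0 rose over time (median -1.75), and with TDZ 10 were lower and 2 higher (median -0.90; 8 and 3 without replicate 3). Their sums were 38733 to 47797 CPM in 48 hour controls, 10051 to 25859 CPM in 4 week controls, 4877 to 8151 CPM with TDZ and 11212 to 16934 CPM with BAR at 4 weeks. Of 34 on the list 30 or 31 had a count in a group. How the changes of the ribosomal proteins relate to either list of markers was not tested.

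**Figure D5:**
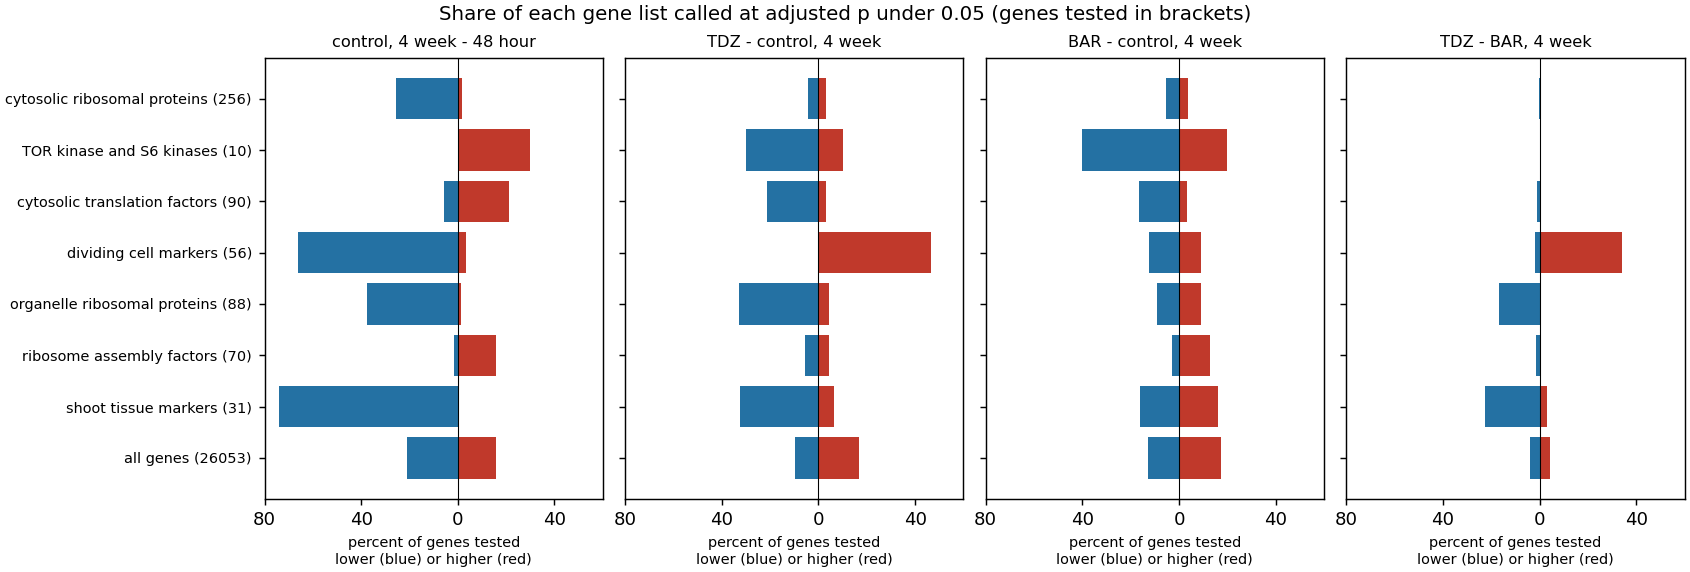
Percent of the tested genes of each list called lower (blue, left) or higher (red, right) in the controls over time, for TDZ and BAR against control at 4 weeks, and for TDZ against BAR at 4 weeks. Cytosolic ribosomal proteins have 66 of 256 lower over time but 11 and 14 lower with TDZ and BAR. Organelle ribosomal proteins have 33 of 88 lower over time and 29 lower with TDZ. Of all genes 21% are lower over time, 9.72% with TDZ and 12.7% with BAR. With totals alone 29 and 35 cytosolic ribosomal proteins are called higher with TDZ and BAR, beside 27.5% and 24.7% of all genes.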

How the data were processed

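The authors deposited a table of gene counts and FPKM values for 18 libraries, made with CASAVA, HISAT2 2.0.5 and featureCounts 1.5.0-p3, per the submitters' processing notes. The build and the counting's strand option were not given in the sources used here. The deposited FPKM values equal counts over length and library total times 1 factor per library (0.781 to 1.17), so they were used to compare genes and families, and the counts for all tests. Lengths are multiples of 3 for 98.2% of genes, so they are coding lengths.

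In R 4.3.3, counts scaled by TMM entered the quasi-likelihood model of edgeR 4.0.16, 1 model of the 6 groups over all 18 libraries (12546489 to 21279097 counts each). Genes passed filterByExpr with a minimum count of 10 and a minimum total of 15, and 9 comparisons were tested, with Benjamini-Hochberg adjustment over all 26053 genes and a threshold of 0.05. A ± beside a log2 fold change is its standard error, and beside a level an SD. The procedure was tested on simulated counts in which few genes changed, as many up as down, in a single group. That setting differs from these data, so it does not bear on how the calls depend on scaling. Alternatives were RLE scaling, totals alone, no filter, DESeq2 1.42.0, the libraries of 1 time alone, the replicate number as a block, libraries with a b in their name summed with their namesakes, and each library left out.

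Members and lists were chosen with earlier results of these data known. Genes were named by rule: the 8 of highest mean FPKM; per comparison, called members of at least 5 CPM with no overlap between groups, taking the 4 top and 4 bottom log2 values, also without TDZ 4 week replicate 3; 3 of smallest p where none was called; up to 3 each of the stalk, S6, S27a, L40, L10, S27 and L5; families whose paralogs differed in direction or changed order; and 3 genes of each other list. Members with no count in the 4 week controls, L27 DVH24_017001 and the cytokinin dehydrogenase fall outside it and were chosen after their values were seen.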

Additional observations from a re-analysis of the deposited data

Results flagged for a closer look

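These members had a cytokinin difference at 4 weeks that departed from the one at 48 hours, by the interaction of medium with time in edgeR's quasi-likelihood fit (adjusted p under 0.05 over all genes, 3 libraries a group). For TDZ the interaction was -1.31 on the log2 scale for L4 DVH24_018883 (adjusted p = 0.039, called under 8 of 24 alternatives) and 2.88 for S24-1 DVH24_028931 (adjusted p = 0.047, called under 6 of 24). For BAR it was 2.01 for L6-3 DVH24_006667 (adjusted p = 0.044, 9 of 24), 1.26 for L32-1 DVH24_017427 (adjusted p = 0.036, 13 of 24) and -5.24 for L10 DVH24_024462 (adjusted p = 0.037, 13 of 23).

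P1 DVH24_010501 had fitted interactions of 9.36 with TDZ and 8.10 with BAR, and S24-1 DVH24_017575 of 8.17 and 8.58. Both genes had no count in the 4 week controls, so these fitted values depend on the prior count and give no size.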

How the results depend on the processing

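No called gene changed direction under the alternatives run, but medians over members, which carry no test, changed sign. Of 44 called gene results 17 were called under every alternative, and calls were lost most often without 4 week control replicate 2 (20) or 3 (19) and in fits of the 4 week libraries alone (14). Shares in parentheses are those of all genes called in the same direction under the same setting. With totals alone TDZ against control at 4 weeks gave 29 members higher (27.5%) and 2 lower (4.97%), and its median went from -0.16 to 0.21. BAR gave 35 (24.7%) and 3 (8.73%), its median going from -0.11 to 0.19. Controls over time had 116 lower (24.1%; median -0.63), the TDZ interaction 0 lower (1%; median from -0.34 to 0.039) and the BAR interaction 7 higher (9.32%; median from -0.08 to 0.18). Medians of all genes moved likewise, at 4 weeks from 0.14 to 0.51 (TDZ) and 0.44 (BAR). DESeq2 gave 17 lower (12.4%) for TDZ, 26 lower (16.3%) for BAR, 1 higher (8.97%) and 2 lower (5.38%) for TDZ against BAR, 5 higher (11.5%) and 13 lower (4.77%) for the TDZ interaction and 4 lower (9.12%) for that of BAR. Fits of the 4 week libraries alone gave 1 higher (3.67%) and 2 lower (3%) for TDZ, 6 higher (9.4%) for BAR and 0 lower (0.379%) for TDZ against BAR. With no filter TDZ had 6 lower (6.11%) and its interaction 0 (1.14%). RLE scaling gave 1 higher (5.06%) for TDZ against BAR and 2 lower (5.79%) for the BAR interaction. Summing libraries with a b in their name gave 20 lower (11.2%) for TDZ, 1 higher (3.58%) for TDZ against BAR, 2 higher (13.7%) over time, 3 lower (3.06%) for the TDZ interaction, and 2 higher (6.98%) and 2 lower (3.42%) for that of BAR. The cause of these moves was not tested.

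Same-numbered libraries did not deviate together (correlations from -0.29 to 0.32, with 0 of 7 comparisons having every pair over 0.1), and 4 of 21 library pairs matched their own number best. The replicate block gave 8 members higher (15.2%) and 8 lower (8.95%) for TDZ at 4 weeks, 8 (16.6%) and 13 (11.6%) for BAR, 2 higher (14.6%) and 61 lower (20.6%) over time, 0 (2.1%) and 0 (0.848%) for the TDZ interaction and 2 higher (5.18%) for that of BAR.

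Leaving out each library in turn gave, for TDZ at 4 weeks, 1 to 13 higher and 1 to 28 lower (median -0.27 to -0.03). For BAR it gave 6 to 18 and 1 to 18 (-0.15 to 0.03), and for TDZ against BAR 0 to 1 and 0 to 3 (-0.13 to 0.03). Controls over time had 2 to 5 higher and 25 to 77 lower (-0.56 to -0.32). The interactions had 0 to 6 and 0 to 26 for TDZ (-0.46 to -0.20) and 0 to 8 and 0 to 3 for BAR (-0.23 to 0.14). At 48 hours the medians ran from 0.08 to 0.30 for TDZ, from -0.25 to 0.11 for BAR and from 0.09 to 0.43 between them, with 0 calls in edgeR's test. Shares of all genes were not set beside these ranges, so whether the moves are particular to the members was not tested. Members of few counts have wide intervals, and 3 results of L10 DVH24_024462 have no adjusted p from DESeq2.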
